A study of Sus scrofa domesticus with 150 samples.

Results

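The center of porcine skin wounds on days 15, 16, 19 and 21 was compared with the center of wounds of the same animals on days 11 and 13. The 12 late samples, 3 per day, and the 12 samples of days 11 and 13, 6 per day, were chosen by the day and location in their labels, with no measured value used, and make up 24 of the 150 samples of the series. The comparison asks which genes had changed in the middle of the wound by the time new epidermis should cover it. The donors of all samples were 6 female domestic pigs (Sus scrofa domesticus) of a Yorkshire mix. Their age is not given in the sources used here. Round full-thickness pieces of skin were cut from the back on day 0, the wounds were covered with both Telfa Clear and Tegaderm, and apart from a topical antibiotic at biopsied sites nothing else was given. Each wound was biopsied on 1 day and then left the experiment. Animals 1, 2 and 3 were sampled on days 11, 15 and 21, and animals 4, 5 and 6 on days 13, 16 and 19, so that every animal gave 2 wounds to each side of the comparison. On days 11 and 13 these were the wounds lettered C and J, on days 15 and 16 wound D, and on days 19 and 21 wound I. The letter of the wound and the day therefore cannot be told apart. The edge samples of the same 24 wounds and the 6 pieces of skin excised on day 0, which hold hair follicles and all skin layers, served for reference.

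A full-thickness wound heals under a sheet of keratinocytes that moves in from the margin over granulation tissue, the young connective tissue of fibroblasts, new vessels and macrophages. Basal keratinocytes make keratin 5 and are anchored by hemidesmosomes to the basement membrane. When they leave this layer they turn to keratins 1 and 10, later to keratin 2 and filaggrin-like proteins, and finally to the cornified layer with its lipid barrier. Keratinocytes at a wound also make keratin 6. Under the closed epidermis the granulation tissue loses inflammatory cells and its matrix is remodeled.

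Levels are given in CPM, counts per 1000000 counts after scaling of the libraries by edgeR's TMM factors. Total counts were 15319350 to 20338972 in the late center samples and 14636892 to 23640195 in those of days 11 and 13. A total of 3 counts, taken as the floor, amounted to 0.127 to 0.205 CPM, and floors of this kind cover counting error only. Fold changes are log2 values from edgeR's quasi-likelihood test on the counts. Their standard errors (SE) were derived as the absolute log2 fold change divided by the square root of the test's F statistic. A gene is called when its Benjamini-Hochberg adjusted p is below 0.05. Wounds of 1 animal are not separate animals, so that the p-values of the center comparisons measure the spread between wounds. In the main fit of center against edge, the edge and center of a wound entered as separate samples. The p-values of that fit mix the spread between wounds with that within wounds. The center sample of day 11 from animal 1, wound C, stood apart from the others of its day, with a mean Pearson's r of 0.853 to them. Some results that rest on it are given with and without it, and others, such as those of IVL and of the S100 genes, only with it.

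Of 14112 genes tested, 2645 (18.7%) were called between the late and the earlier center samples, 1434 higher (10.2%) and 1211 lower (8.58%). At least 2-fold differences made up 498 of the higher and 279 of the lower calls. Libraries scaled by their size alone gave 986 higher and 1652 lower calls, with a median log2 change over all genes of -0.076 in place of 0.002. The calls came with the last days. Against the same 12 samples, day 15 gave 2 calls of 15613 genes (0.0128%, both higher, with 1211 genes below 0.05 before adjustment and 12 calls by DESeq2). With the animal as a replicate block it gave 1, and against day 11 of the same animals alone 0. Day 16 gave 0 (0.0%, with 1344 genes below 0.05 before adjustment and 24 calls by DESeq2). Day 19 gave 1988 (12.7%) and day 21 gave 3855 (24.7%). Without the day 11 sample that stood apart they gave 2859 and 4350. Without animal 6, day 19 gave 87, and 23 of the named genes lost their day 19 call. Against day 13 of its own 3 animals day 19 gave 595, and 12 of the named genes lost the call. Day 21 against day 11 of its own 3 animals gave 3272. Without days 19 and 21, the days 15 and 16 together gave 0 calls (1804 genes below 0.05 before adjustment). Within animals 1 to 3 alone the comparison gave 0 calls (3438 before adjustment) and within animals 4 to 6 alone 24 (2427 before adjustment). Leaving out 1 animal at a time gave 808 (without animal 2) to 2285 calls.

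**Figure D1:**
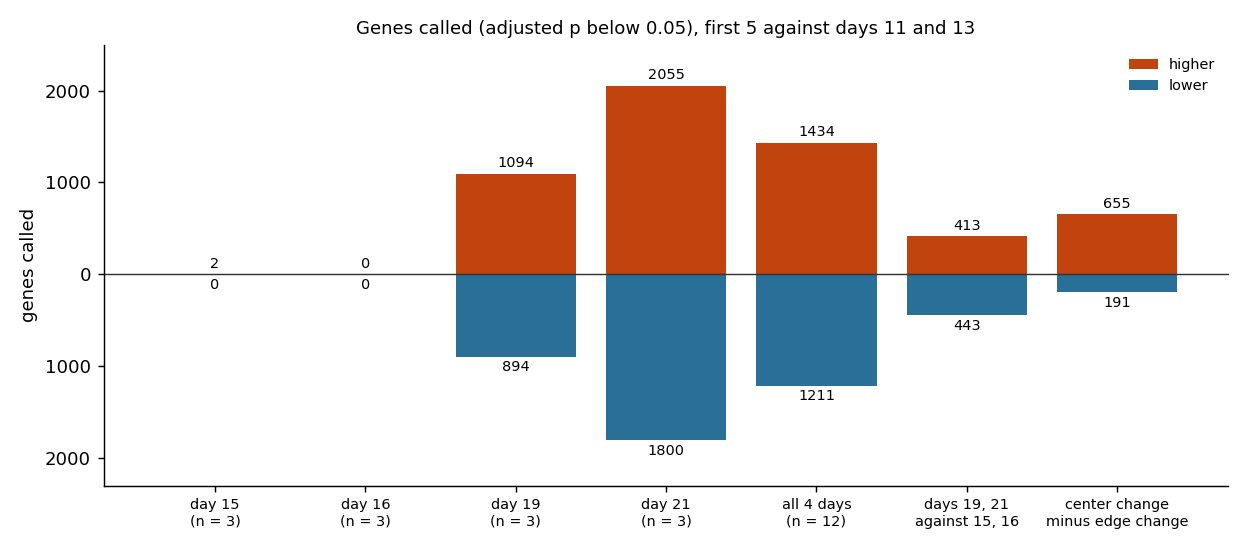
Number of genes called (edgeR, adjusted p below 0.05) as higher (upward bars) or lower (downward bars). The first 5 pairs of bars are each late day and all 4 late days against the 12 samples of days 11 and 13, followed by days 19 and 21 against days 15 and 16, and by the change in the center minus the change at the edge. Days 15 and 16 have 2 and 0 calls, day 19 has 1094 and 894, and day 21 has 2055 and 1800.

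Basal keratinocyte genes were low in most center samples of days 11 and 13 and high in all 6 of days 19 and 21. KRT5 (ENSSSCG00025059933, contig LUXX01048831.1, 2078081 to 2085192), the keratin of basal cells, ranged from 9.78 to 4945 CPM with a median of 41.9 on days 11 and 13. On day 15 it was at 4936, 3598 and 265 CPM in animals 1, 2 and 3, and on day 16 at 7673, 12.9 and 1132 CPM in animals 4, 5 and 6. On day 19 it was at 6600, 5695 and 3237 CPM and on day 21 at 3350, 2471 and 3507 CPM, against 5705 to 8960 CPM in day 0 skin. Of the earlier samples, 4 stood above 500 CPM. They were the day 11 sample that stood apart (4945 CPM), both day 13 samples of animal 4 (521 and 2126 CPM) and wound C of animal 6 (1555 CPM). The day 16 sample of animal 5 was as low as the low samples of day 11. The other 8 earlier samples were at or below 50.8 CPM. In bulk tissue, fewer cells of a type and less RNA per cell cannot be told apart.

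KRT5 was not called (log2 fold change 2.21, SE 1.05, edgeR adjusted p = 0.141). Its mean on the log2(CPM + 1) scale was 6.53 ± 3.28 (SD, n = 12) before and 10.88 ± 2.59 (SD, n = 12) late, and it was higher late in 6 of 6 animals. Without the day 11 sample that stood apart the value was 3.18 (adjusted p = 0.0311), with the animal as a replicate block 4.16 (adjusted p = 0.031), and with counts summed per animal and side 4.15 (adjusted p = 0.105). TP63, the transcription factor of basal keratinocytes, was at 0 to 120 CPM with a median of 0.924 on days 11 and 13 and at 91.4 to 184 CPM on days 19 and 21. Its log2 fold change was 2.31 (SE 1.02, adjusted p = 0.114), and 3.28 (adjusted p = 0.0229) without that sample. COL17A1, a collagen of the hemidesmosome, had a median of 9.49 CPM before and of 803 CPM late, with a log2 fold change of 2.2 (SE 1.0, adjusted p = 0.125) and of 3.38 (adjusted p = 0.0158) without that sample. With the animal as a replicate block the adjusted p was 0.0261 for TP63, 0.0208 for COL17A1 and 0.0472 for CDH1 (E-cadherin of cell junctions, log2 fold change 1.58, SE 0.97, adjusted p = 0.261 without the block). With counts summed per animal and side it was 0.0775, 0.0838 and 0.13 for these 3 genes, and none was called. CDH1 was at 2.59 (edgeR adjusted p = 0.0513) without the day 11 sample that stood apart. In no day alone was any of these 4 genes called without the block.

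Of 15 genes listed for basal keratinocytes 14 were found and tested, and 3 rose with 0 lower, against 10.2% of all genes called higher, at a median log2 fold change of 1.1. The 3 were the hemidesmosome genes ITGA6 (1.01, SE 0.32, edgeR adjusted p = 0.0315), ITGB4 and DST. Without the day 11 sample that stood apart 9 rose, and with the animal as a replicate block 7. Over all genes 1923 of 14170 were called higher without that sample and 1904 of 14112 with the block.

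**Figure D2:**
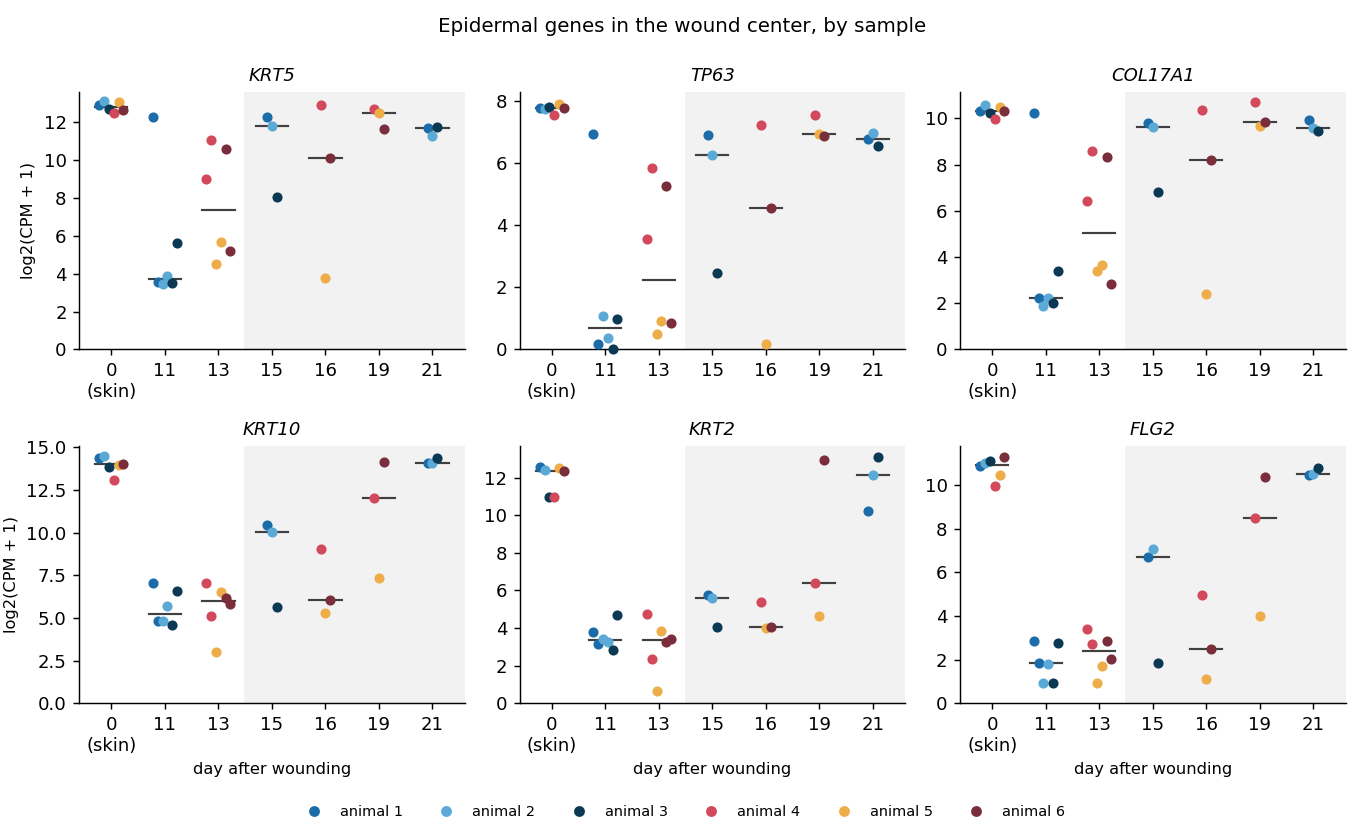
Levels of 6 epidermal genes as log2(CPM + 1) in day 0 skin and in each center sample, by day after wounding. Each point is a sample, colored by animal, lines are medians and the shaded days are the late ones. KRT5, TP63 and COL17A1 are high in some samples from day 11 on and in all 6 of days 19 and 21, whereas KRT10, KRT2 and FLG2 reach the range of day 0 skin only in samples of days 19 and 21.

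The largest rises among the genes named here were those of the upper epidermal layers. KRT10 (ENSSSCG00025042112, contig LUXX01073178.1, 1798599 to 1802962), the keratin of the first layers above the basal one, ranged from 7.02 to 132 CPM with a median of 53.5 on days 11 and 13. On day 15 it was at 1412, 1034 and 48.4 CPM in animals 1, 2 and 3, and on day 16 at 516, 38.3 and 64.3 CPM in animals 4, 5 and 6. On day 19 the same animals 4, 5 and 6 were at 4092, 163 and 17700 CPM. On day 21 all 3 samples were high, at 17036, 17527 and 21195 CPM, in the range of 8502 to 23285 CPM of day 0 skin. Every sample of days 19 and 21 was above every sample of days 11 and 13, while days 15 and 16 overlapped them. KRT10 rose by 6.81 on the log2 scale (112-fold, SE 1.1, edgeR adjusted p = 0.00137), in 6 of 6 animals. The value was 7.42 (adjusted p = 0.0653) within animals 1 to 3 and 5.85 (adjusted p = 0.132) within animals 4 to 6, 3.06 (adjusted p = 0.127) without days 19 and 21, and 7.71 (adjusted p = 8.43e-06) without days 15 and 16. By day it was 3.76 (SE 0.83, adjusted p = 0.16) on day 15, 1.75 (SE 0.87, adjusted p = 0.61) on day 16, 6.91 (SE 0.87, adjusted p = 0.000159) on day 19 and 8.27 (SE 0.91, adjusted p = 8.78e-06) on day 21.

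KRT1 (ENSSSCG00025057839, contig LUXX01048831.1, 1928836 to 1934557), the partner of KRT10 in keratin filaments, rose by 6.38 (SE 1.11, edgeR adjusted p = 0.00169). It was at 4.49 to 162 CPM on days 11 and 13, at 318, 989 and 38.6 CPM on day 15 and at 831, 31.1 and 50.9 CPM on day 16. On day 19 it was at 5225, 132 and 10188 CPM, of which the 132 CPM of animal 5 lay inside the earlier range, and on day 21 at 13762 to 16705 CPM. KRT2 (ENSSSCG00025058238, contig LUXX01048831.1, 1954987 to 1962727), a keratin of the uppermost living layers, rose by 7.44 (SE 1.31, adjusted p = 0.00178). This was the largest rise of the genes named here in the fit without a block. On days 15 and 16 all 6 samples stood at 15.0 to 53.9 CPM, against 0.59 to 25.8 CPM before. On day 19 it was at 83.7, 23.5 and 7700 CPM and on day 21 at 1193, 4541 and 8576 CPM, and day 0 skin was at 1999 to 6004 CPM. With counts summed per animal and side the adjusted p of KRT2 was 0.0533. With the animal as a replicate block KRT2 rose by 6.16 (adjusted p = 0.0112), less than FLG2 (6.7) and KRT10 (6.31). Without days 19 and 21 its value was 1.51 (adjusted p = 0.227). FLG2 (ENSSSCG00025060377, contig LUXX01096747.1, 433720 to 437665), the filaggrin relative of the cornified layer, was at 0.875 to 9.52 CPM on days 11 and 13. It was at 103, 133 and 2.61 CPM on day 15, at 30.1, 1.17 and 4.68 CPM on day 16, at 365, 14.8 and 1322 CPM on day 19 and at 1408 to 1768 CPM on day 21. FLG2 rose by 7.2 (SE 1.14, adjusted p = 0.00132). A second row carries the FLG2 name by protein match, at 0 to 0.748 CPM before and 0.0497 to 293 CPM late, so that reads may be split between both.

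Compared with the lowest of the 6 day 0 samples, KRT10, KRT1 and FLG2 were at or above it in 4 of 6 samples of days 19 and 21, the 3 of day 21 and that of animal 6 on day 19, and KRT2 in 3 of 6. None of the 6 samples of days 15 and 16 and none of the 12 of days 11 and 13 reached it for any of these 4 genes. KRT5 reached 0.1 times its lowest day 0 level in 3 of 12 samples of days 11 and 13, in 4 of 6 of days 15 and 16 and in 6 of 6 of days 19 and 21.

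Of 25 genes listed for the suprabasal and cornified epidermis 22 were found and tested. Of these 12 rose and 0 fell, against 10.2% and 8.58% of all genes. Their median log2 fold change was 3.82, against 0.002 over all genes tested. Without the day 11 sample that stood apart 20 rose, and with the animal as a replicate block also 20. Over all genes 1923 of 14170 were called higher without that sample and 1904 of 14112 with the block. On day 19 alone 12 rose and on day 21 alone 13, in both cases with 0 lower, against 7.01% and 13.2% of all genes. Beside the keratins, desmocollin 1 (DSC1, a junction protein of the upper layers, 5.57, SE 1.23, edgeR adjusted p = 0.00501) and the skin aspartic protease ASPRV1 (5.54, SE 1.02, adjusted p = 0.00211) rose. The serpins SERPINA12 (5.99, SE 1.11, adjusted p = 0.00211) and SERPINB12 (5.45, SE 1.16, adjusted p = 0.00409) rose as well, as did the protease inhibitor CST6 (4.45, SE 0.82, adjusted p = 0.00211). CALML5, KLK5, CASP14 and TGM5 were the other list members called. CST6 remained below day 0 skin, at 74.6 to 181 CPM on day 21 against 365 to 1360 CPM.

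Involucrin (IVL), a protein of the early cornified envelope, was at 1000 CPM in the day 11 sample that stood apart and at 324 CPM in wound J of animal 4 on day 13, where KRT10 was at 129 and 33.2 CPM. Late values were 0.864 to 1009 CPM, and IVL was not called (log2 fold change 1.39, SE 1.11, edgeR adjusted p = 0.403). TGM3 had a log2 fold change of -0.26. KRT14, KRT6A, KRT16, KRT17, FLG and LORICRIN were not matched to a row of the table and are not analysed here.

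The balance of keratins within a sample was read from the deposited FPKM values, which are per gene length. The log2 ratio of KRT10 to KRT5 was 1.07 to 1.93 in day 0 skin and 2.84 to 3.32 on day 21. It was -1.96 to -1.31 on day 15, where KRT5 was the higher of both in all 3 samples. On day 16 it was -3.4 and -3.65 in animals 4 and 6. It was 2.06 in animal 5, where KRT5 was at 4.64 FPKM. On day 19 it was -0.2, -4.64 and 2.94 in animals 4, 5 and 6. Of the 8 earlier samples with little KRT5, 7 had ratios of 1.13 to 2.38 at low levels of both keratins, and wound C of animal 5 on day 13 had -1.16. The 4 with KRT5 above 500 CPM had ratios of -5.51 to -1.49.

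KRT6C, a keratin of activated keratinocytes whose reads may be shared with near-identical keratin 6 copies, was at 210 to 482 FPKM in day 0 skin. It was at 9817 FPKM in the day 11 sample that stood apart and at 3646 FPKM in wound J of animal 4 on day 13. On day 15 it was at 6485, 5757 and 320 FPKM and on day 16 at 12528, 10.3 and 1458 FPKM. On day 19 it was at 11867, 7906 and 1274 FPKM and on day 21 at 3930, 1272 and 1054 FPKM, above all day 0 samples. The log2 ratio of KRT6C to KRT10 was 3.19 to 3.71 on day 15 and 5.58, -0.9 and 5.46 on day 16. It was 2.51, 6.57 and -2.83 on day 19 and -3.4 to -1.17 on day 21, against -5.93 to -3.24 in day 0 skin. The lowest value of day 19, in animal 6, lay in the range of day 21. The KRT6C row was not called (log2 fold change on counts 1.76, SE 1.14, edgeR adjusted p = 0.289). Of 15 genes listed for wound-activated keratinocytes 7 were found and 6 tested, at a median log2 fold change of 1.08. Of these 0 were called higher and 1 lower, against 10.2% and 8.58% of all genes. The 1 was TNIP3, an inhibitor of inflammatory signaling that is not specific to keratinocytes, which fell by 1.52 (SE 0.43, adjusted p = 0.018). The mean of the list on the log2(CPM + 1) scale was 2.55 to 7.07 on days 11 and 13 and 2.93 to 6.82 on days 15 and 16. It was 5.21 to 6.74 on days 19 and 21, against 4.39 to 4.58 in day 0 skin.

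**Figure D3:**
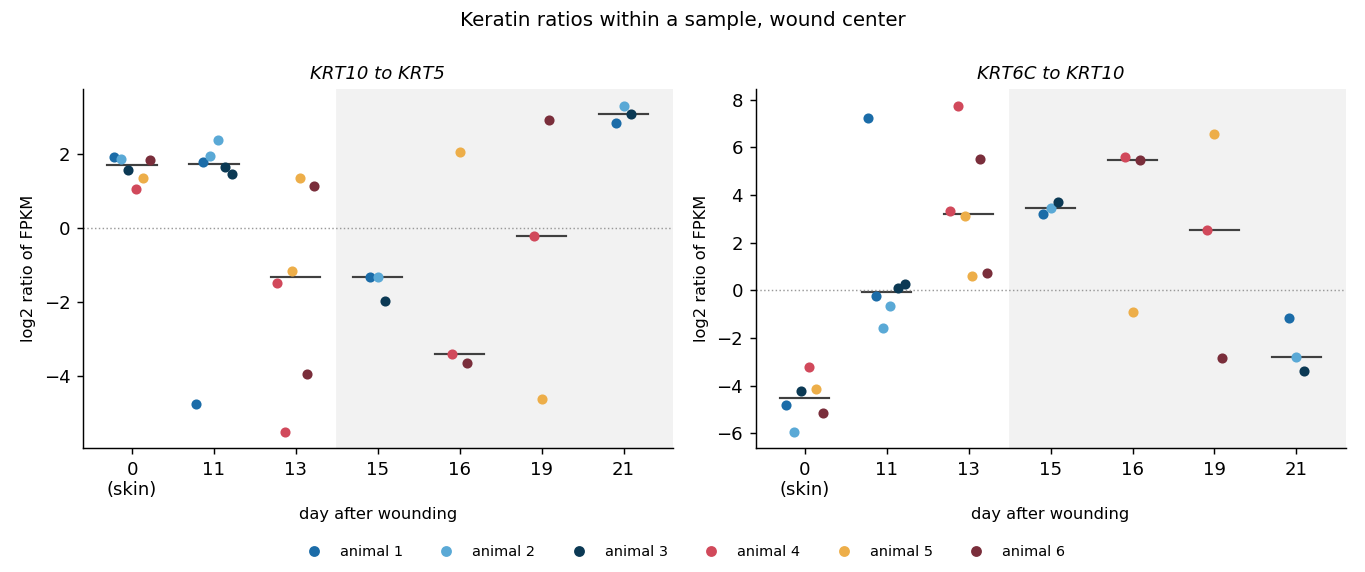
Log2 ratios of FPKM within each sample for KRT10 to KRT5 (left) and KRT6C to KRT10 (right), by day after wounding. Points are samples colored by animal, lines are medians, the dotted line is an equal level and the shaded days are the late ones. On day 21 all 3 KRT10 to KRT5 ratios are between 2.84 and 3.32 and all 3 KRT6C to KRT10 ratios are below 0.

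Of 16 genes listed for the lipid barrier of the epidermis 15 were found and 13 tested. Of these 5 rose and 0 fell, against 10.2% of all genes called higher, and 8 were not called, at a median log2 fold change of 2.18. They were the lipoxygenases ALOX12B and ALOXE3, the fatty acid elongase ELOVL4 (2.51, SE 0.63, edgeR adjusted p = 0.00982), SPTLC3 of sphingolipid synthesis, and ABHD5, a lipase activator. Of 14 tested by day, 0 were called on day 15 and on day 16, 2 rose on day 19 and 10 on day 21. Of all genes 7.01% rose on day 19 and 13.2% on day 21. Without the day 11 sample that stood apart 11 rose in the pooled comparison, and with the replicate block also 11. Over all genes 1923 of 14170 were called higher without that sample and 1904 of 14112 with the block. ELOVL4 was at 3.31 to 76.7 CPM on days 11 and 13, the highest value being the sample that stood apart. It was at 143 to 213 CPM on day 21, inside the 139 to 250 CPM of day 0 skin. Of 17 genes for epithelial junctions 16 were tested, and 2 rose (JUP and DSC3) and 1 fell, against 10.2% and 8.58% of all genes, at a median of 1.84. Without that sample 13 rose, and with the replicate block 12. The lower 1 is the row named DSP (desmoplakin), at 12.8 to 25.4 CPM in all center samples. A second row matched to the same protein held 4.42 to 4366 CPM and was not called (2.41, SE 1.08, adjusted p = 0.117).

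**Figure D4:**
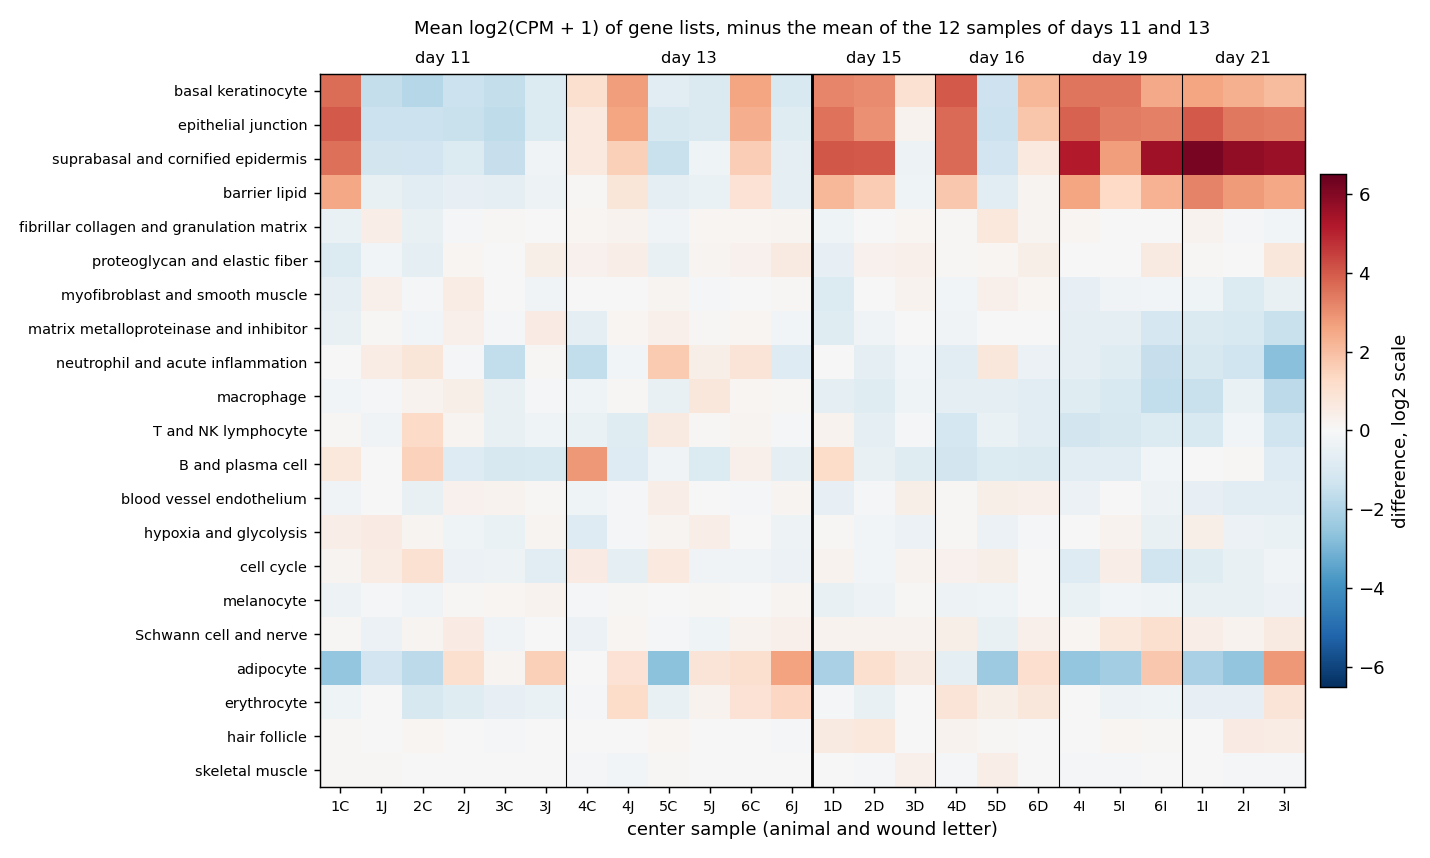
Mean log2(CPM + 1) over the found genes of 21 lists in each of the 24 center samples, as the difference from the mean of the 12 samples of days 11 and 13. The list of wound-activated keratinocytes is not drawn. Columns are samples named by animal and wound letter, red is higher and blue is lower. The 4 epidermal lists are high in single samples of days 11 and 13 and above the earlier mean in all samples of days 19 and 21, and the macrophage list is below it in all late samples.

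Cells of skin appendages and of the layers below gave a mixed picture. Of 11 hair follicle genes found, 0 passed the filter on low counts in the pooled comparison, and the list mean on the log2(CPM + 1) scale was 0.01 to 0.23 before and 0.09 to 0.76 late, against 2.07 to 8.63 in day 0 skin. Of the 2 genes called on day 15, named after their values were seen, 1 belongs here. It was KRT71, an inner root sheath keratin (log2 fold change 6.13, SE 0.98, edgeR adjusted p = 0.0317). The other was ENSSSCG00025069451, a row without a gene name (5.68, SE 0.86, adjusted p = 0.0295). KRT71 had 0 counts in 11 of 12 samples of days 11 and 13. It stood at 3.91, 5.21 and 0.334 CPM on day 15 and at 0.244, 2.75 and 3.33 CPM on day 21, when day 0 skin had 8.47 to 5479 CPM. A fitted fold change over counts this low depends on the prior count. With the replicate block the adjusted p was 0.243 and 0.0672.

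The mean of the adipocyte list ranged from 1.73 to 7.04 before and from 1.83 to 7.23 late. Of 7 members tested 0 were called, against 18.7% of all genes. The skeletal muscle list was at 0.45 to 0.74 before and 0.51 to 1.1 late with 0 of 3 members called. The erythrocyte list was at 0.19 to 2.58 and 0.69 to 2.09, also with 0 of 3 called. Of 6 melanocyte genes tested 3 fell, against 8.58% of all genes called lower. They were EDNRB, the endothelin receptor (log2 fold change -1.16, SE 0.24, edgeR adjusted p = 0.00341), KIT and MLANA, while TYR, TYRP1 and DCT did not pass the filter. EDNRB and KIT are also made by other cells of the dermis. Of 5 Schwann cell and nerve genes tested, NGFR and ERBB3 rose and MBP fell by 0.86 (SE 0.15, adjusted p = 0.00169), against 10.2% and 8.58% of all genes. NGFR and ERBB3 are made by keratinocytes as well. The part of these markers in the other results was not tested.

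In the connective tissue the main collagens stayed high and the periostin gene rose. POSTN (ENSSSCG00025049827, contig LUXX01036174.1, 1229537 to 1310612), a matrix protein that binds collagen and cells, was at 326 to 1649 CPM on days 11 and 13 with a median of 771. On day 15 it was at 2321, 2087 and 1167 CPM, and on day 16 at 2100, 1541 and 1823 CPM. On day 19 it was at 4161, 4189 and 6902 CPM and on day 21 at 7445, 6134 and 5957 CPM. Every sample of days 19 and 21 was above every center sample of days 11, 13, 15 and 16, and day 0 skin was at 2490 to 5868 CPM. POSTN rose by 2.14 (4.42-fold, SE 0.34, edgeR adjusted p = 0.00132), in 6 of 6 animals. By day the value was 1.08 (SE 0.35, adjusted p = 0.469), 1.05 (SE 0.35, adjusted p = 0.457), 2.55 (SE 0.33, adjusted p = 0.000144) and 2.92 (SE 0.33, adjusted p = 7.42e-06). Within animals 1 to 3 it was 2.73 (adjusted p = 0.0653) and within animals 4 to 6 it was 1.62 (adjusted p = 0.112).

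COL1A1 was at 26911 to 64708 CPM before and at 41136 to 70672 CPM late, and COL3A1 at 24593 to 55481 and 33552 to 76883 CPM. Neither was called, with log2 fold changes of 0.29 (SE 0.15, edgeR adjusted p = 0.174) and 0.25 (SE 0.14, adjusted p = 0.201). Of 24 genes listed for collagen and granulation matrix, all tested, 4 rose (POSTN, CTHRC1, SPARC and THBS2) and 2 fell (COL5A3 and fibronectin, FN1), against 10.2% and 8.58% of all genes, at a median of 0.09. COL5A3, a minor fibrillar collagen chain, fell by 0.98 (SE 0.21, adjusted p = 0.00466), from 169 to 634 CPM before to 82.0 to 151 CPM on days 19 and 21. Of 15 genes for proteoglycans and elastic fibers 2 rose, near the 10.2% of all genes. ELN, the elastin gene, rose by 1.09 (SE 0.32, adjusted p = 0.0218) in 5 of 6 animals. Its high late values were 2, of 376 CPM in animal 6 on day 19 and 338 CPM in animal 3 on day 21, and the other 10 were at 67.2 to 124 CPM, against 31.6 to 125 CPM before and 293 to 708 CPM in day 0 skin. These 2 samples also had the highest late means of the adipocyte list, 6.15 and 7.23 on the log2(CPM + 1) scale, whose part in the result was not tested. Without animal 1, animal 2 or animal 3 the ELN call was lost. The microfibril gene MFAP4 rose by 0.85 (SE 0.2, adjusted p = 0.00613). Decorin (DCN) had a value of -0.09 (SE 0.12, adjusted p = 0.652).

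Of 14 myofibroblast and smooth muscle genes 1 fell, a share no larger than the 8.58% of all genes. It was the tropomyosin TPM2 (-0.54, SE 0.18, edgeR adjusted p = 0.0406). On day 21 alone 5 fell, against 11.5% of all genes, among them ACTA2, the actin of myofibroblasts (-0.81, SE 0.3, adjusted p = 0.049, and 0.0532 with the replicate block). ACTA2 was at 267 to 689 CPM on days 11 and 13 and at 300, 163 and 202 CPM on day 21, where day 0 skin had 261 to 551 CPM.

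Genes of matrix metalloproteinases, which cut the matrix, and of their inhibitors moved in both directions. Of 15 tested 4 fell (MMP9, MMP12, MMP19 and TIMP3) and 2 rose (MMP11 and TIMP2), against 8.58% and 10.2% of all genes. On day 19 alone 2 fell and 2 rose, against 5.73% and 7.01% of all genes. On day 21 alone 6 fell and 1 rose, against 11.5% and 13.2% of all genes. MMP9 (ENSSSCG00025068399, contig LUXX01101888.1, 2973718 to 2980835) was at 951 to 4974 CPM with a median of 2761 on days 11 and 13. It was at 1507, 1116 and 2636 CPM on day 15, at 1788, 1393 and 1225 CPM on day 16, at 1226, 926 and 199 CPM on day 19 and at 302, 447 and 147 CPM on day 21. Days 15 and 16 lay inside the earlier range and 5 of 6 samples of days 19 and 21 below it, whereas day 0 skin had 2.1 to 4.86 CPM. MMP9 fell by 1.41 (SE 0.39, edgeR adjusted p = 0.0162), in 6 of 6 animals, and on day 21 alone by 3.23 (SE 0.6, adjusted p = 0.000863). MMP1, an interstitial collagenase, was at 126 to 1789 CPM before, at 46.3 to 1048 CPM on days 15 and 16 and at 7.78 to 172 CPM on days 19 and 21. It was not called over the 4 days (-1.0, SE 0.67, adjusted p = 0.308) and fell on day 21 by 4.12 (SE 1.08, adjusted p = 0.00942). MMP13 had a value of -0.35 (SE 0.51, adjusted p = 0.672). MMP12, the macrophage elastase, fell by 2.61 (SE 0.62, adjusted p = 0.00746).

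**Figure D5:**
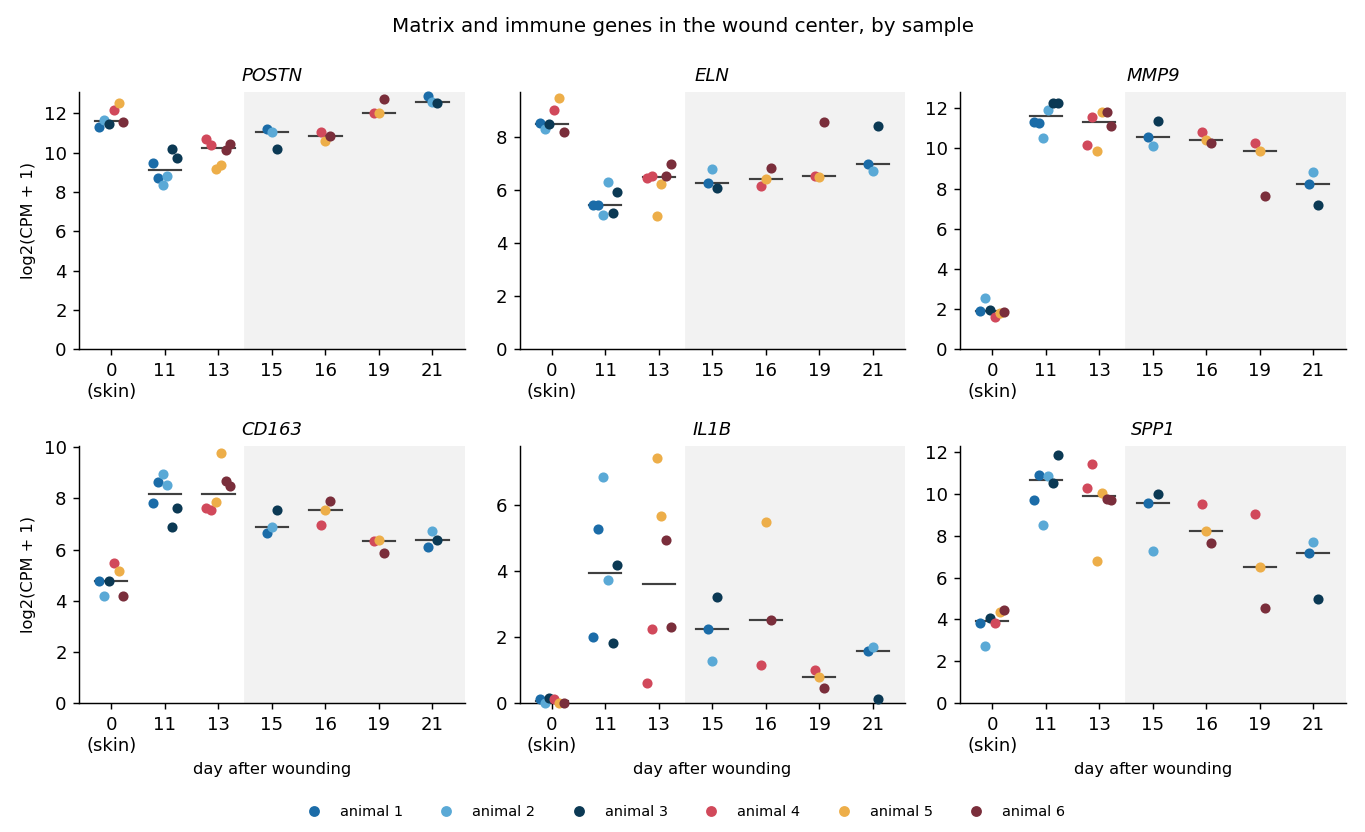
Levels of 6 matrix and immune genes as log2(CPM + 1) in day 0 skin and in each center sample, by day after wounding, drawn like the epidermal genes. POSTN lies above all earlier samples on days 19 and 21, and MMP9, CD163, IL1B and SPP1 have lower medians on days 19 and 21 than on days 11 and 13, with single samples of MMP9, IL1B and SPP1 overlapping. ELN is high in 1 sample of day 19 and 1 of day 21.

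Most listed macrophage genes fell. Of 18 genes found and tested 12 fell and 0 rose, against 8.58% and 10.2% of all genes, at a median log2 fold change of -0.88. On day 19 and on day 21 alone 9 each fell, against 5.73% and 11.5% of all genes. CD163 (ENSSSCG00025016573, contig LUXX01006132.1, 2191851 to 2226058), a scavenger receptor of macrophages, was at 117 to 873 CPM with a median of 292 on days 11 and 13. It was at 100, 117 and 187 CPM on day 15, at 122, 184 and 240 CPM on day 16, at 78.9, 81.3 and 57.6 CPM on day 19 and at 67.6, 106 and 81.5 CPM on day 21. Day 0 skin had 17.0 to 43.0 CPM. CD163 fell by 1.48 (2.79-fold, SE 0.28, edgeR adjusted p = 0.00242), in 6 of 6 animals. SPP1, the osteopontin gene, fell by 2.0 (SE 0.57, adjusted p = 0.0183), and CD68, a lysosomal protein of macrophages, by 1.14 (SE 0.21, adjusted p = 0.00211). The complement gene C1QA had a value of -0.2 (SE 0.21, adjusted p = 0.538), and C1QB, C1QC, TREM2, FCGR3A and GPNMB were likewise not called. The list mean on the log2(CPM + 1) scale was 6.51 to 7.73 before, 6.22 to 6.73 on days 15 and 16 and 5.31 to 6.58 on days 19 and 21, with some overlap, and day 0 skin was at 3.68 to 4.15.

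Of 13 tested genes of T and NK cells 7 fell and 0 rose, against 8.58% and 10.2% of all genes, at a median of -0.98. They were CD3D, CD3E, CD2, CD5, CD8A, IL7R and NKG7, a protein of cytotoxic granules, which fell by 1.0 (SE 0.19, edgeR adjusted p = 0.00222). Of 12 genes of B and plasma cells 1 fell, close to the 8.58% of all genes. It was IRF4, a transcription factor of plasma cells and other immune cells (-2.3, SE 0.62, adjusted p = 0.0138). IRF4 was at 4.87 to 291 CPM before, with the highest values in wound C of animal 4 on day 13 and of animal 2 on day 11, and at 2.54 to 41.3 CPM late. JCHAIN, which joins secreted antibodies, was at 7.66 to 652 CPM before and at 10.9 to 570 CPM late (0.1, SE 0.81, adjusted p = 0.949). MS4A1, a B cell surface protein, had a value of -0.73 (SE 0.49, adjusted p = 0.313).

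Of 19 genes of neutrophils and acute inflammation 4 fell and 0 rose, against 8.58% of all genes called lower, at a median of -0.79. IL1B, an early inflammatory cytokine, was at 0.535 to 169 CPM with a median of 14.6 on days 11 and 13 and at 0.101 to 2.23 CPM on days 19 and 21. On days 15 and 16 it was at 1.22 to 43.3 CPM, the highest being animal 5 on day 16, whose KRT5 was the lowest of the late samples. IL1B fell by 2.67 (SE 0.91, edgeR adjusted p = 0.0438), in 6 of 6 animals. The call was lost without any 1 of animals 1, 2, 3, 4 and 6 and without the filter on low counts. The others were CSF3R, IL1R2 and MEFV. CXCL8, a chemokine for neutrophils, was at 1496 CPM in that sample of animal 5 and at 5.36 to 186 CPM in the other 11 late samples, and was not called (-0.51, SE 0.75, adjusted p = 0.674). PTGS2, the inducible cyclooxygenase, had a value of 0.36 (SE 0.34, adjusted p = 0.484).

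The calprotectin genes S100A8 and S100A9 and their relative S100A12, made by neutrophils and by activated keratinocytes, were not called (0.12, 0.35 and 0.19, with SE of 0.93, 0.94 and 0.88). S100A8 was at 11.8 to 2184 CPM before, highest in the day 11 sample that stood apart. It was at 1015, 343 and 52.5 CPM on day 15, at 617, 9.45 and 91.1 CPM on day 16, at 390, 893 and 23.8 CPM on day 19 and at 318, 9.31 and 1.26 CPM on day 21. Day 0 skin had 0.592 to 2.9 CPM.

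Other large falls among the named genes were those of CCL3, a chemokine whose reads may be shared with close copies (-2.59, SE 0.59, edgeR adjusted p = 0.00583), STMN2, a tubulin-binding protein of neurons (-2.42, SE 0.46, adjusted p = 0.00226), and C1QL2, a relative of complement C1q (-2.17, SE 0.45, adjusted p = 0.00362). TREH, the trehalase gene, fell by 2.01 (SE 0.46, adjusted p = 0.00568), and the immediate early gene FOSB by 1.98 (SE 0.64, adjusted p = 0.0341, and 0.097 with the replicate block).

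Of 16 blood vessel genes 0 were called over the 4 days, against 18.7% of all genes. On day 19 alone 1 rose, the VWF row described next, and on day 21 alone 9 fell, against 11.5% of all genes, among them PECAM1, a junction protein of endothelium (-0.77, SE 0.23, edgeR adjusted p = 0.0185), which was at 261 to 318 CPM that day against 326 to 665 CPM before. The VWF row of the table held 0.059 to 2.98 CPM in the center, and a second row matched to the same protein 133 to 354 CPM (-0.09, SE 0.14, adjusted p = 0.674). Of 13 genes of hypoxia and glycolysis 4 fell, against 8.58% of all genes, namely ADM, LDHA, PGK1 and PFKFB3, an activator of glycolysis (-0.83, SE 0.2, adjusted p = 0.00704). Of 20 cell cycle genes 0 were called, against 18.7% of all genes. MKI67, a marker of dividing cells, had a value of -0.6 (SE 0.29, edgeR adjusted p = 0.147).

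Days 19 and 21 were compared with days 15 and 16, to which each animal gave 1 wound per side. Of 14272 genes tested 856 (6.0%) were called, 413 higher (2.89%) and 443 lower (3.1%). Libraries scaled by size alone gave 286 higher and 564 lower, DESeq2 gave 2037, and without animal 6 the count was 0 (3087 genes below 0.05 before adjustment). Without animals 1, 2 or 3 it was 78, 182 and 13. POSTN rose between both pairs of days by 1.67 (SE 0.2, edgeR adjusted p = 0.00863), and KRT2 by 6.9 (SE 1.37, adjusted p = 0.0234) and KRT1 by 4.77 (SE 1.23, adjusted p = 0.0458). KRT10 missed the threshold at 4.66 (SE 1.26, adjusted p = 0.0513), and KRT5 had a value of 0.51 (SE 0.96, adjusted p = 0.761). CD163 fell by 0.99 (SE 0.21, adjusted p = 0.0258) and COL5A3 by 0.97 (SE 0.16, adjusted p = 0.0181). With the animal as a replicate block the adjusted p was 0.128 for KRT2, 0.0589 for KRT1 and 0.051 for CD163.

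The change in the center was set against the change at the edge of the same wounds, as the difference of both log2 fold changes. Of 15124 genes tested 846 (5.59%) were called, 655 with the center change above the edge change (4.33%) and 191 below (1.26%). With the wound as a replicate block the count was 1943 (1241 and 702), and without both samples of the day 11 wound C of animal 1 it was 1537. Leaving out 1 animal gave 36 (without animal 2) to 963 calls. Of the 22 suprabasal genes tested 12 were called, all above 0. KRT10 was at 1661 to 32727 CPM at the edge on days 11 and 13 and at 9220 to 31212 CPM on the late days, and its difference was 6.31 (SE 1.01, edgeR adjusted p = 0.000575). FLG2 (6.56, SE 1.02, adjusted p = 0.000575), KRT2 (6.52, SE 1.26, adjusted p = 0.00337) and RPTN, a relative of filaggrin (6.32, SE 1.37, adjusted p = 0.00657), followed. KRT5 was at 2.48 (SE 1.05, adjusted p = 0.155), and at 5.82 (adjusted p = 0.0104) with the wound as a replicate block. Of the 14 basal genes 2 were called above 0, and 13 with that block. With the wound as a replicate block KRT2 was at 2.55 (adjusted p = 0.251) and KRT1 at 4.04 (adjusted p = 0.0525).

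POSTN was not called in this comparison (0.86, SE 0.42, edgeR adjusted p = 0.226, and 0.0463 with the wound block), and it was at 1642 to 5703 CPM at the edge before and 3662 to 13659 CPM late. MMP9 (-0.08, SE 0.73, adjusted p = 0.969) and CD163 (-0.83, SE 0.41, adjusted p = 0.235, and 0.00791 with the wound block) were not called either. Of the named genes, the largest negative values were those of the hair keratin KRT83 (-5.48, SE 1.38, adjusted p = 0.0169) and the muscle enolase ENO3 (-3.25, SE 0.77, adjusted p = 0.0121). In the center KRT83 stayed at 0.123 to 3.66 CPM and ENO3 at 1.16 to 8.68 CPM, while single late edge samples reached 522 and 222 CPM. With the wound block ENO3 was at -1.22 (adjusted p = 0.078). STMN2 was at -2.27 (SE 0.53, adjusted p = 0.0118) and ATP8B4 at -1.36 (SE 0.4, adjusted p = 0.0364).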

How the data were processed

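Poly-A RNA of the biopsies was read from both ends. The sequencing provider filtered and aligned the reads. The aligner, the counting tool and the genome build are not given in the sources used here, so that contig coordinates are those of the deposited table. The authors deposited counts per gene without normalization, and FPKM values, used here only for keratin ratios. Genes were named by the table's name column (12300 of 30461) or its protein match (9387), with 1 row per symbol, and 8774 stayed unnamed.

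Counts were tested in R 4.3.3 by the quasi-likelihood method of edgeR 4.0.16 (TMM scaling, genes kept by filterByExpr at min.count 10 and min.total.count 15, Benjamini-Hochberg adjustment, threshold 0.05), on the 24 center samples, with 5 groups for single days and 48 samples for center against edge. The fits were tested on simulated counts drawn without animal or wound effects. The simulation therefore does not bear on the correlation of samples of an animal or a wound. The study's methods give no test of expression between groups. DESeq2 1.42.0 and the other alternatives are given below. Tables and figures were made with Python 3.11.15, pandas 2.3.3 and matplotlib 3.10.9.

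Samples of the same animal pair both sides by design. Their deviations correlated with a mean r of 0.2 across genes (-0.0268 in animal 2), against -0.0487 between animals, and those of edge and center of a wound with 0.297 (above 0 in 24 of 24). No 2 samples of a day agreed within sampling noise.

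The comparison, the 22 gene lists (339 genes) and the named genes were chosen with earlier results of these data known. Named were genes fixed by role, the 8 largest rises and falls with a symbol, a mean of at least 5 CPM and 1 direction in all 6 animals, 1 further gene per list, and the 4 most positive and most negative for center against edge, besides list members. Of these, 1 gene is not reported here. Wound images were not analysed here.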

Additional observations from a re-analysis of the deposited data

Results flagged for a closer look

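In groups of 6 samples, 24 of 135 sets of values held a sample whose gap to its neighbour exceeded Dixon's critical share of the range (0.625), where chance gives about 1 in 20, or 6.75. Of these, 14 were the day 11 center sample of animal 1, wound C. Its mean correlation with the other samples of its day was low (share 0.953). It was high for CDH1 (0.896), SERPINB12 (0.873), TP63 (0.845), RPTN (0.828), COL17A1 (0.821), IVL (0.817), KRT5 (0.754), DSC1 (0.719), S100A8 (0.711), S100A9 (0.693), ELOVL4 (0.692), S100A12 (0.669) and ITGA6 (0.646). Wound C of animal 4 on day 13 was low for C1QL2 (0.773), ATP8B4 (0.759) and MBP (0.702) and high for DERL3 (0.701). On day 11 wound C of animal 2 was high for IRF4 (0.684), MCM5 (0.65) and KRT71 (1.0, as the only sample above 0), and wound C of animal 3 was low for ATP8B4 (0.713). On day 13 wound J of animal 5 was high for ENSSSCG00025069451 (1.0), and its wound C was low for SPP1 (0.631).

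The change in the center differed from the change at the edge (edgeR, log2 difference) for 18 named genes. It was more positive in the center for FLG2 (6.56), KRT2 (6.52), RPTN (6.32), KRT10 (6.31), KRT1 (6.09), SERPINA12 (5.76), ASPRV1 (5.37), DSC1 (5.09), SERPINB12 (4.5), CST6 (4.41), ELOVL4 (2.44) and ITGA6 (1.26). It was more negative for KRT83 (-5.48), ENO3 (-3.25), TNNI2 (-2.31), STMN2 (-2.27), ATP8B4 (-1.36) and DCN (-0.6). With the wound as a replicate block TNNI2 was at -1.18 (adjusted p = 0.0703), and KRT2, KRT1 and ENO3 were not called either.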

How the results depend on the processing

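The late against earlier comparison of the center gave 2332 to 3321 calls under other scalings, without the filter, with DESeq2, with the animal as a replicate block, with counts summed per animal, with days weighted equally, and without the day 11 sample that stood apart. It gave 4560 without days 15 and 16, 0 without days 19 and 21, 0 in animals 1 to 3 alone and 24 in animals 4 to 6 alone, each with fewer samples. Leaving out 1 animal gave 808 to 2285 calls for this comparison, 0 to 2 for day 15, 0 for day 16, 87 to 2324 for day 19, 1830 to 4344 for day 21, 0 to 919 for days 19 and 21 against 15 and 16, and 36 to 963 for center against edge. Day 15 gave 12 calls with DESeq2, 1 with the replicate block, 0 against day 11 of the same animals and 24 without the day 11 sample that stood apart. Day 16 gave 24 with DESeq2, day 19 gave 595 against day 13 of the same animals, and days 19 and 21 against 15 and 16 gave 2037 with DESeq2. Center against edge gave 1943 with the wound as a replicate block and 1537 without the day 11 wound C of animal 1. With libraries scaled by size alone 36.0% of the day 19 calls and 40.5% of the day 21 calls were higher, against 55.0% and 53.3%, and the median change was -0.108 for both. DESeq2 gave 1218 higher and 1513 lower calls for day 19. Of the named genes, all 36 called in the late comparison kept their direction but lost the call in either set of 3 animals and without days 19 and 21, 13 lost it without animal 2 and 1 to 5 without any other animal. For single days and for center against edge, leaving out the day 11 sample or wound was chosen after seeing the data. The causes were not tested.

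Over the named genes, 18 values of the late comparison changed sign under these alternatives and 8 on leaving out 1 animal, all of genes that were not called. ALAS2 was at 0.25 with the replicate block, 0.26 with summed counts, 0.0 with days weighted equally, 1.11 in animals 1 to 3 and -0.68 to 0.32 without 1 animal. JCHAIN was at -0.38 with days weighted equally, -0.79 in animals 4 to 6, -0.38 without days 19 and 21 and -0.49 to 0.77 without 1 animal. In animals 4 to 6 CXCL8 was at 0.18 and MMP13 at 0.05, and without days 19 and 21 at 0.1 and 0.25. In animals 1 to 3 C1QA was at 0.07, S100A12 at -0.14 and S100A8 at -0.45. Without days 15 and 16 PTGS2 was at -0.3, S100A12 at -0.17, S100A8 at -0.11 and S100A9 at -0.06. Without 1 animal S100A12 was at -0.07 to 0.82 and S100A8 at -0.2 to 0.96. Depth was 14636892 to 23640195 counts, and differences of genes near 3 counts could not be detected.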
